A study of Homo sapiens with 24 samples.

Results

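The genes of β-catenin, of its relative plakoglobin and of other adherens junction proteins were described at the RNA level in HepaRG cells, above all after β-catenin siRNA. The 9 genes were CTNNB1, JUP, CTNNA1, CTNNA2, CTNND1, CDH1, CDH2, CDH3 and CDH11, chosen by name and found on the arrays through the RefSeq transcript of each probe. They are 9 of 20503 genes that carry a symbol on the array, and 8 of the 24648 genes tested. CTNNA2 was the gene not tested. HepaRG is a human hepatocellular carcinoma line with bipotent progenitor properties. Its RNA was hybridised to 24 one-colour (Cy3) Agilent arrays, 3 for each of 8 conditions.

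Cells without transfection were left untreated, received mouse recombinant Wnt3a (200 ng/ml), received mouse FZD8_CRD (300 ng/ml), or received both, for 72 h in serum-free medium with bovine serum albumin. FZD8_CRD is a soluble part of the receptor Frizzled-8 that binds Wnt ligands. Other cells were electroporated with 80 pmol of a negative control siRNA or of a β-catenin siRNA, each with and without Wnt3a. A single siRNA product was named for β-catenin in the methods, and no label of these arrays separates another. On the arrays, effects of its sequence on other transcripts therefore cannot be told apart from effects of losing CTNNB1. The paper also reports PCR of selected genes after a pair of β-catenin siRNAs. The 3 slides each held all 8 conditions, and arrays are numbered by slide. A condition had the same place on each slide, so that condition and place cannot be told apart. The arrays of a condition stand for separate culture experiments, as the methods describe, although the labels do not say so for each array.

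β-catenin has a place in the adherens junction, where it links the tail of a classical cadherin to α-catenin and so to actin, and another as the transcriptional partner of TCF/LEF factors in Wnt signaling. Plakoglobin is its closest relative and can take its place at cadherins in many cells. In the liver, hepatocytes carry both E-cadherin and N-cadherin, while cadherin-11 is typical of mesenchymal cells.

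Levels are log2 signals relative to the 75th percentile of the same array, and they were compared between conditions and never between genes. Differences are given on the log2 scale, with adjusted p-values from limma over all 24648 genes, and a gene was called at an adjusted p under 0.05. Where arrays of 2 conditions are said not to overlap, the share of all genes without overlap was not counted. Between 58.3% and 66.5% of the spots on an array were well above background. Of the 13 probes for the 9 genes, 11 were well above background on all 24 arrays, the CDH3 probe on 22 and the CTNNA2 probe on 0. Among 10 hepatic markers, 9 were detected on all 24 arrays, including ALB, KRT8, KRT18 and KRT19, and EPCAM on 1. Of 7 mesenchymal markers, 4 were detected on all arrays, including VIM, FN1 and ACTA2, while THY1 was detected on 0. The 2 neural markers were not well above background on any array. All 4 endothelial markers and 2 of 3 leukocyte markers were detected on all arrays, among them CD68 and KDR. As whole cultures were measured, fewer cells that carry a transcript and less RNA per cell cannot be told apart.

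CTNNB1 encodes β-catenin and was the target of the siRNA. Its signal after control siRNA was 3.35, 3.37 and 3.51 on slides 1 to 3, and after β-catenin siRNA it was 0.26, 0.35 and 0.52. With Wnt3a the values were 3.39, 3.62 and 3.67 after control siRNA and 0.33, 0.52 and 0.77 after β-catenin siRNA. The knockdown arrays were low on every slide and did not overlap with any other condition. The log2 difference was -3.03 without Wnt3a (standard error 0.17, adjusted p = 1.17e-09) and -3.02 with it (standard error 0.17, adjusted p = 7.76e-10). The remaining signal was 12.2% of the control without Wnt3a (95% confidence interval of the fold 0.0954 to 0.156) and 12.3% with Wnt3a (0.0964 to 0.158). Within slides the difference was -3.09, -3.02 and -2.99 without Wnt3a and -3.06, -3.09 and -2.90 with it.

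The array carries another CTNNB1 probe, for a different transcript. By that probe the log2 difference was -3.53 without Wnt3a (standard error 0.11, adjusted p = 2.64e-14) and -3.66 with Wnt3a (standard error 0.11, adjusted p = 1.3e-14), which leaves 8.65% and 7.9% of the control signal. Both probes were well above background on the knockdown arrays, so that transcript remained measurable. The main CTNNB1 probe was spotted 10 times, and the standard deviation over these spots was at most 0.0726 on any array. That is below the standard deviation between the 3 arrays of every condition.

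Outside the knockdown, CTNNB1 ran from 3.22 to 4.11. Untreated cells gave 3.28, 3.27 and 3.57, and Wnt3a gave 3.40, 3.31 and 3.47. The difference of 0.02 had a 95% confidence interval of -0.33 to 0.38. FZD8_CRD alone gave 3.22, 3.38 and 4.11, and FZD8_CRD with Wnt3a 3.54, 3.98 and 3.89. Against Wnt3a alone the latter was higher by 0.41 (adjusted p = 0.0667), and with the slide as a block the adjusted p was 0.00801. Without array 1 with FZD8_CRD and Wnt3a this difference was 0.54 and was called (adjusted p = 0.0318). The other CTNNB1 probe gave 0.32 for the same comparison (adjusted p = 0.022). The Wnt3a response of CTNNB1 did not pass the test in any of the 4 settings, although without FZD8_CRD array 3 it was called there, at 0.50 (adjusted p = 0.013). Its residual transcript after siRNA changed by 0.17 with Wnt3a (95% confidence interval -0.19 to 0.52).

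**Figure D1:**
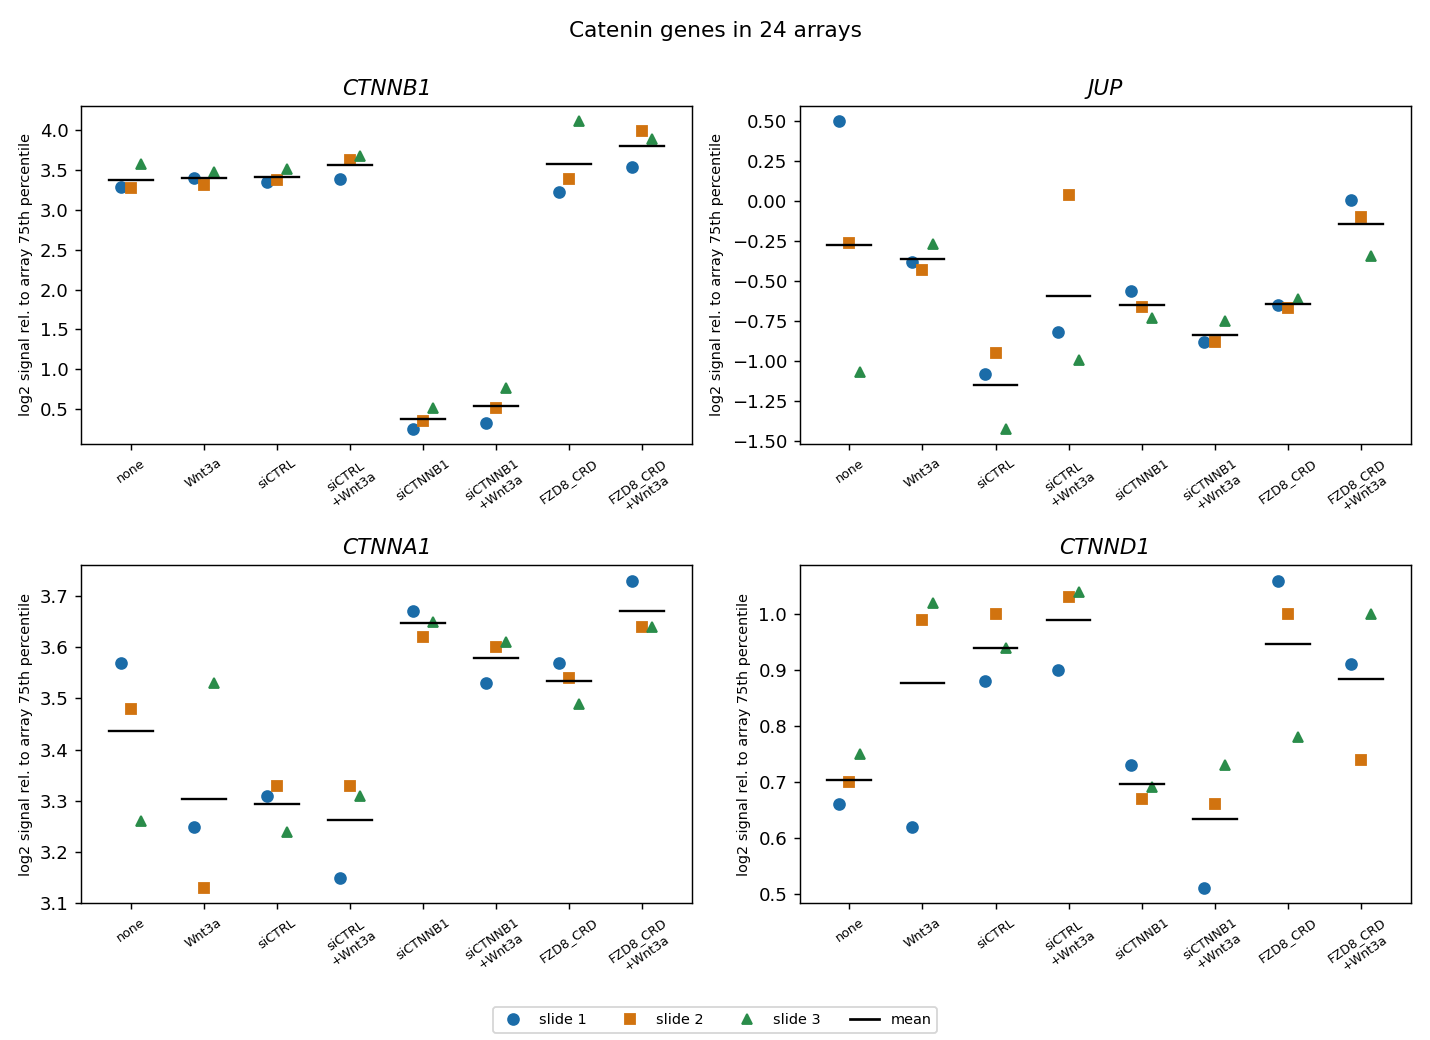
Log2 signal over that of the 75th percentile (vertical axes, each with its own range) for 4 catenin genes on the 24 arrays, by condition (horizontal axes). Points are arrays, marked by slide, and bars are means of 3. CTNNB1 lies between 0.26 and 0.77 on the 6 knockdown arrays and at 3.22 or above on the others, while the JUP points of untreated cells run from -1.07 to 0.50.

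Of the 8 genes tested, 3 were called for β-catenin siRNA against control siRNA without Wnt3a, when 10.6% of all genes were called. With Wnt3a in both groups 5 of 8 were called, again beside 10.6% of all genes, and in the mean of the 2 knockdown differences 6 of 8 were called, beside 21.1%. CTNNB1 itself is among each of these counts. With only probes well above background on all 24 arrays, which leaves out CDH3, the last 2 counts were 4 and 5 of 7. No share of all genes is given for that filter, so these 2 counts cannot be read as particular to the members. Several comparisons below share arrays with the knockdown comparisons, such as those after control siRNA, and are not independent of them. The median log2 difference over the 8 genes was -0.13 without Wnt3a and -0.30 with it, while over all genes it was -0.03 and -0.014.

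JUP encodes plakoglobin. After control siRNA its signal was -1.08, -0.95 and -1.42, and after β-catenin siRNA -0.56, -0.66 and -0.73, so that all 3 knockdown arrays were above the 3 controls. The difference of 0.50 did not pass the test (95% confidence interval -0.07 to 1.06, adjusted p = 0.298). With Wnt3a the values were -0.82, 0.04 and -0.99 after control siRNA and -0.88, -0.88 and -0.75 after β-catenin siRNA. These groups overlapped, and the difference was -0.25 (95% confidence interval -0.81 to 0.32, adjusted p = 0.724). The within-slide differences with Wnt3a were -0.06, -0.92 and 0.24, of mixed sign.

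Over both knockdown comparisons, JUP was at 1.09 times the control (95% confidence interval 0.827 to 1.44). In the mean of the 2 comparisons a rise of JUP transcript above 1.44-fold, or a fall below 0.827 of the control, lies outside this interval. That mean joins differences of opposite sign. Without Wnt3a alone the interval of the fold was 0.955 to 2.09, so that a rise above 1.44-fold lies inside it. With Wnt3a it was 0.57 to 1.25. Fitted on the 2 conditions compared alone, the difference without Wnt3a was called (adjusted p = 0.0488). Protein was not measured on these arrays, so the amount of plakoglobin at the membrane was not tested.

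The JUP signal of untreated cells differed most between arrays, at 0.50, -0.26 and -1.07, with a standard deviation of 0.79. Wnt3a gave -0.38, -0.43 and -0.27. FZD8_CRD alone gave -0.65, -0.67 and -0.61, and FZD8_CRD with Wnt3a 0.01, -0.10 and -0.34. Control siRNA was lower than no transfection by 0.88 (standard error 0.27, adjusted p = 0.024), on all 3 slides, at -1.58, -0.69 and -0.35. This call was lost without untreated array 1, where the difference was -0.49 (adjusted p = 0.198). It was also lost without untreated array 2 (adjusted p = 0.0584), control siRNA array 1 (adjusted p = 0.0512) or control siRNA array 3 (adjusted p = 0.104).

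CTNNA1 encodes αE-catenin, the link from β-catenin or plakoglobin to actin. It was 3.31, 3.33 and 3.24 after control siRNA and 3.67, 3.62 and 3.65 after β-catenin siRNA. With Wnt3a it was 3.15, 3.33 and 3.31 against 3.53, 3.60 and 3.61. In both comparisons every knockdown array was above every control array. The rise was 0.35 without Wnt3a (standard error 0.09, adjusted p = 0.0105) and 0.32 with it (standard error 0.09, adjusted p = 0.0184), which are 1.28-fold and 1.25-fold.

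A further CTNNA1 probe, for the same transcript, gave a smaller difference without Wnt3a, 0.09 (95% confidence interval -0.07 to 0.26, adjusted p = 0.58), and a rise of 0.28 with Wnt3a (adjusted p = 0.0269). Without Wnt3a the CTNNA1 change was thus called by the first probe and not by the further one. The difference between the probes was not tested. With the arrays scaled to the spike-in probes, the CTNNA1 differences were 0.43 and 0.11, and neither was called (adjusted p = 1 and 0.888). Under that scaling the median of all genes moved to 0.05 without Wnt3a and to -0.221 with it. The call with Wnt3a was also lost without array 1 of control siRNA with Wnt3a (adjusted p = 0.0999) and without knockdown array 2 or 3 with Wnt3a (adjusted p = 0.0689 and 0.0662). Without slide 1 or 2 the CTNNA1 difference without Wnt3a was 0.35 and 0.39 and was not called (adjusted p = 0.192 and 0.131). With Wnt3a it was then 0.29 and 0.34, also not called (adjusted p = 0.249 and 0.198). In the mean of both knockdown comparisons the first probe gave 0.34 (adjusted p = 0.00038) and the further one 0.19 (adjusted p = 0.0212). This mean was called in 27 of 29 alternatives. It was not called under the spike-in scaling (0.27, adjusted p = 0.669) or with the fold threshold of the study. In other conditions CTNNA1 was 3.57, 3.48 and 3.26 in untreated cells, 3.25, 3.13 and 3.53 with Wnt3a, 3.57, 3.54 and 3.49 with FZD8_CRD, and 3.73, 3.64 and 3.64 with both. The knockdown arrays thus lay above those with control siRNA, and those without Wnt3a also lay above untreated cells (highest 3.57), with which those with Wnt3a (lowest 3.53) overlapped.

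CTNNA2 encodes αN-catenin, the neuronal α-catenin. Its probe was at the floor of -6.13 on all 24 arrays and well above background on 0 of them, also after β-catenin siRNA. No difference can be given for it.

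CTNND1 encodes p120-catenin, which binds the cadherin tail close to the membrane and holds cadherins at the cell surface. Its signal was 0.88, 1.00 and 0.94 after control siRNA and 0.73, 0.67 and 0.69 after β-catenin siRNA. With Wnt3a it was 0.90, 1.03 and 1.04 against 0.51, 0.66 and 0.73. The knockdown arrays were lower on every slide and did not overlap with their controls. The difference was -0.25 without Wnt3a (95% confidence interval -0.45 to -0.04, adjusted p = 0.131) and -0.35 with Wnt3a (95% confidence interval -0.56 to -0.15, adjusted p = 0.0243). In the mean of both it was -0.30 (adjusted p = 0.00372). Untreated cells gave 0.66, 0.70 and 0.75, so that the knockdown arrays without Wnt3a were at the untreated level. Control siRNA was above untreated cells on all 3 slides with no overlap, by 0.24 (95% confidence interval 0.03 to 0.45, adjusted p = 0.0932). CTNND1 was 0.62, 0.99 and 1.02 with Wnt3a, 1.06, 1.00 and 0.78 with FZD8_CRD, and 0.91, 0.74 and 1.00 with both.

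The other CTNND1 probe, for a different transcript, gave -0.35 and -0.29 (adjusted p = 0.25 and 0.376), with intervals of -0.71 to 0.02 and -0.66 to 0.07. Both probes were lower, but the call came from the brighter probe. Leaving out array 2 or 3 of control siRNA with Wnt3a, or knockdown array 1 or 2 with Wnt3a, ended the CTNND1 call with Wnt3a (adjusted p = 0.0853, 0.0872, 0.111 and 0.0617). Under the spike-in scaling the CTNND1 difference with Wnt3a was -0.56 and was not called (adjusted p = 0.465). The mean of both comparisons was then -0.36 and not called either (adjusted p = 0.471). It was also not called by the other probe (-0.32, adjusted p = 0.0733) or without slide 2 (-0.27, adjusted p = 0.123).

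**Figure D2:**
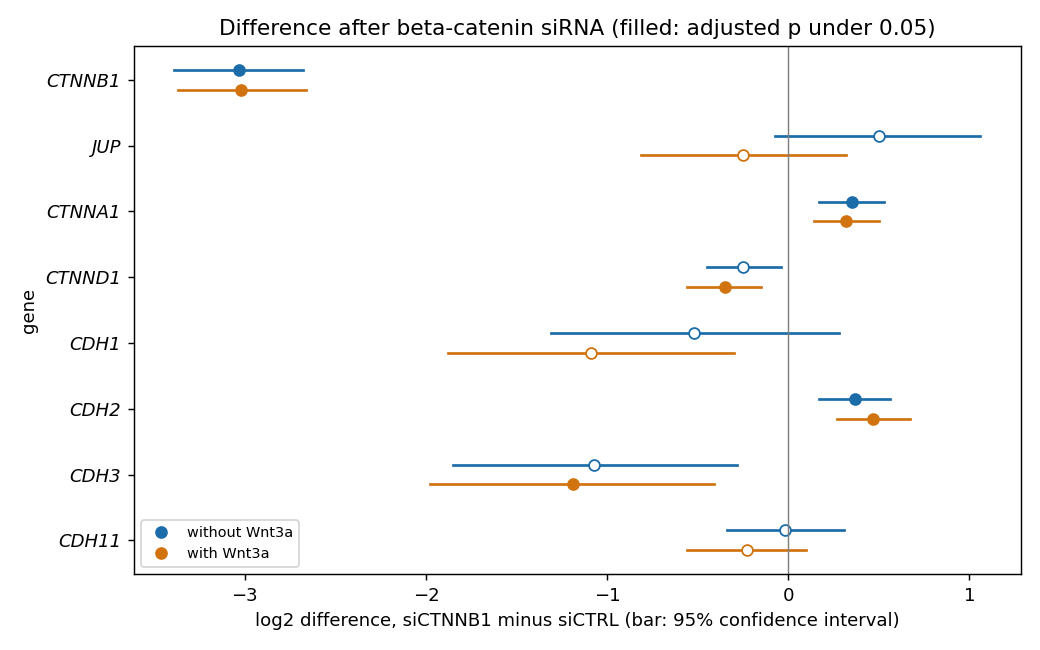
Log2 difference between β-catenin siRNA and control siRNA (horizontal axis) for the 8 genes tested (vertical axis), without Wnt3a in blue and with Wnt3a in orange, with 95% confidence intervals. Filled points were called by limma at an adjusted p under 0.05. CTNNA1 and CDH2 lie above 0 in both comparisons, and the JUP points fall on either side of 0, at 0.50 and -0.25.

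**Figure D3:**
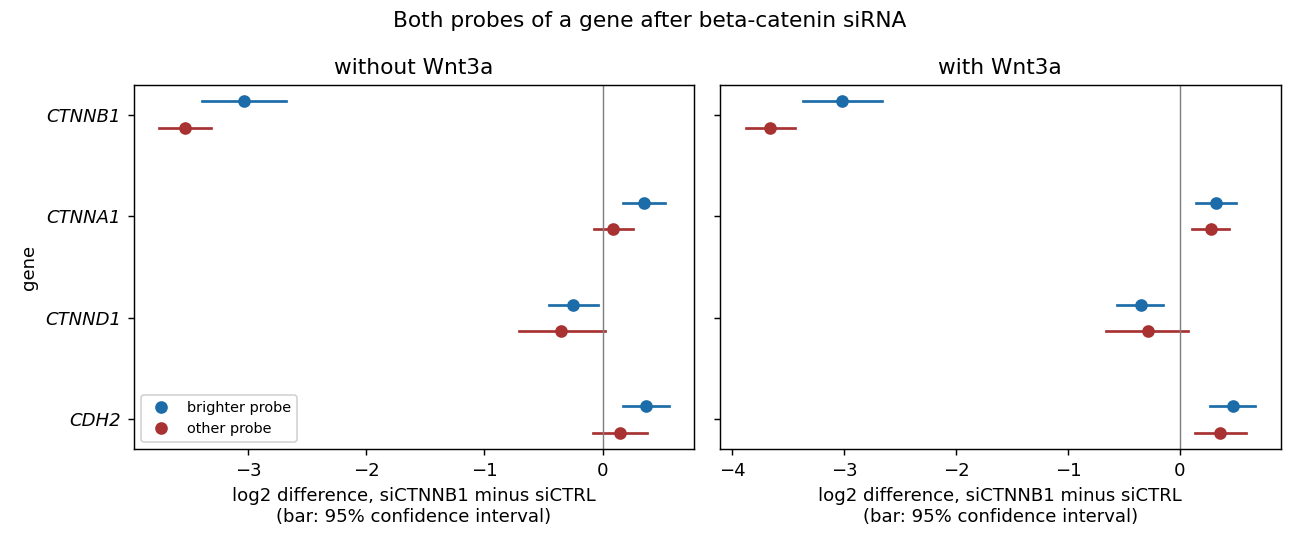
Log2 difference between β-catenin siRNA and control siRNA (horizontal axes) for the 4 genes with a pair of probes (vertical axis), without and with Wnt3a, with 95% confidence intervals. Blue is the probe that stands for the gene and red the other. Both CTNNB1 probes fall by 3.02 or more, and the other CTNNA1 and CDH2 probes lie nearer to 0 without Wnt3a, at 0.09 and 0.15.

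CDH1 encodes E-cadherin, the cadherin of epithelial junctions. After control siRNA it was -1.11, -1.0 and -0.97, and after β-catenin siRNA -1.28, -1.94 and -1.41. With Wnt3a it was -1.56, -1.66 and -1.49 against -3.23, -2.66 and -2.10. CDH1 was lower on the knockdown arrays on all 3 slides in both comparisons, with no overlap. The difference was -0.52 without Wnt3a (95% confidence interval -1.31 to 0.28, adjusted p = 0.49) and -1.09 with it (95% confidence interval -1.88 to -0.30, adjusted p = 0.0745). Neither was called. Without knockdown array 3 with Wnt3a the latter was called, at -1.37 (adjusted p = 0.0481).

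In the mean of both knockdown comparisons CDH1 fell by 0.80 (standard error 0.27, adjusted p = 0.0366), to 57.3% of the control. This call was lost in 15 of 28 alternatives, among them leaving out any of 10 of the 12 arrays compared, with adjusted p between 0.0049 and 0.283 over all of them. The CDH1 probe was spotted 10 times, with a standard deviation over spots of at most 0.161 on any array.

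CDH1 also moved in the other conditions. Untreated cells gave 0.63, -0.19 and -0.82, and Wnt3a -0.64, -1.45 and -0.43. These overlapped, and the difference of -0.71 was not called (95% confidence interval -1.50 to 0.08, adjusted p = 0.296). The slides disagreed, with -1.28, -1.26 and 0.40, and without slide 3 it was -1.27 and was called (adjusted p = 0.0123). FZD8_CRD alone gave -0.72, -0.69 and -2.21, and FZD8_CRD with Wnt3a -2.85, -2.90 and -2.67, the lowest values without siRNA.

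CDH2 encodes N-cadherin. It was 3.46, 3.43 and 3.39 after control siRNA and 3.80, 3.82 and 3.76 after β-catenin siRNA. With Wnt3a it was 3.42, 3.38 and 3.36 against 3.96, 3.87 and 3.74. All 6 knockdown arrays were above all 6 control siRNA arrays. The rise was 0.37 without Wnt3a (standard error 0.09, adjusted p = 0.0159) and 0.47 with it (standard error 0.09, adjusted p = 0.00215), or 1.29-fold and 1.39-fold.

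The other CDH2 probe gave 0.15 without Wnt3a (95% confidence interval -0.08 to 0.38, adjusted p = 0.499) and 0.36 with it (adjusted p = 0.0402). Under the spike-in scaling the CDH2 differences were 0.45 and 0.26 and were not called (adjusted p = 0.902 and 0.77). The CDH2 call without Wnt3a was also lost without control siRNA array 3 (adjusted p = 0.057) and without knockdown array 2 (adjusted p = 0.0563). With the mean of both probes the difference was 0.26 and was not called (adjusted p = 0.102). Without slide 1 or 2 it was not called either, at 0.38 and 0.35 (adjusted p = 0.215 and 0.235). With Wnt3a the CDH2 call was lost without slide 1 or 2, at 0.44 and 0.47 (adjusted p = 0.113 and 0.116). In the mean of both knockdown comparisons CDH2 rose by 0.42 (adjusted p = 0.000113), and by the other probe by 0.25 (adjusted p = 0.023). This mean was called in 27 of 29 alternatives. It was not called under the spike-in scaling (0.35, adjusted p = 0.384) or with the fold threshold of the study. Untreated cells gave 3.67, 3.66 and 3.53, and Wnt3a 3.53, 3.59 and 3.46. FZD8_CRD alone gave 3.61, 3.61 and 3.95, and with Wnt3a 3.96, 3.98 and 3.60.

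CTNNA1 and CDH2 were the genes called higher in both knockdown comparisons. For that reason a RefSeq promoter window of 300 bases (GRCh38.p14) is shown for each, with matches to the TCF/LEF letters (CTTTG, then A or T at each of the next 2 places) on either strand in capitals. The CTNNA1 window is chr5:138753572-138753871 on the plus strand, and the CDH2 window is chr18:28177081-28177380 on the minus strand.
CTNNA1: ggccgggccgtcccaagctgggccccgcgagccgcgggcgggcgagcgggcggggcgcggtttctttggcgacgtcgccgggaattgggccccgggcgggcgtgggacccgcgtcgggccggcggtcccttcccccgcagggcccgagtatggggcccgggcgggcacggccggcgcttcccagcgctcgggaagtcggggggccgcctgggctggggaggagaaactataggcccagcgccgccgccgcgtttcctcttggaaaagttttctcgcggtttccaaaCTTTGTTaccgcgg
CDH2: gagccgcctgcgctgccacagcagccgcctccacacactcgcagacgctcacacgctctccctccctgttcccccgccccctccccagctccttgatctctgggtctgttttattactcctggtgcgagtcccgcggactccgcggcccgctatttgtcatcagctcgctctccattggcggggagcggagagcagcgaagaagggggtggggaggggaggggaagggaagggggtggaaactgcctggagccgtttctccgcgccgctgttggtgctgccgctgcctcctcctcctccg
The CTNNA1 window shown holds 1 match and the CDH2 window 0. The CTNNA1 window was picked from 4 because it holds a match. Of the other 3, 2 overlap and share a match, so that CTNNA1 has 2 distinct matches, and the last holds 0. Of the 2 CDH2 windows, 0 hold a match. Of all 35116 promoter windows, 13.8% hold a match. A match is a description of letters and not of binding.

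CDH3 encodes P-cadherin. After control siRNA it was -4.38, -5.17 and -4.73, and after β-catenin siRNA -5.46, -5.91 and -6.10. With Wnt3a it was -4.30, -4.46 and -4.28 against -5.63, -5.96 and -5.03. The knockdown arrays were lower on each slide and did not overlap with their controls. The difference was -1.07 without Wnt3a (95% confidence interval -1.85 to -0.28, adjusted p = 0.077) and -1.19 with it (95% confidence interval -1.98 to -0.41, adjusted p = 0.0461).

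With the slide as a block the CDH3 difference without Wnt3a was called (adjusted p = 0.0404). The probe was well above background on 2 of 3 knockdown arrays in either comparison and lay near the floor of -6.13, so the size of the difference depends on how dim signals are treated. Untreated cells gave -4.08, -4.41 and -4.97, and Wnt3a -3.96, -4.60 and -4.25. With normexp background correction the CDH3 difference with Wnt3a was -0.31 (adjusted p = 0.259). That call was also lost without any array of control siRNA with Wnt3a and without knockdown array 1 or 2 with Wnt3a (adjusted p between 0.0884 and 0.202). In the mean of both knockdown comparisons CDH3 fell by 1.13 (adjusted p = 0.00379). This mean was called in 26 of 27 alternatives, with values between -1.26 and -0.34. It was not called without slide 1 (-1.09, adjusted p = 0.0941).

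CDH11 encodes cadherin-11, a cadherin of mesenchymal cells. It was -0.45, -0.25 and -0.62 after control siRNA and -0.37, -0.49 and -0.50 after β-catenin siRNA. With Wnt3a it was 0.00, 0.14 and 0.06 against -0.17, -0.07 and -0.25. The groups overlapped without Wnt3a and did not with it. The differences were -0.02 (95% confidence interval -0.34 to 0.31) and -0.23 (95% confidence interval -0.56 to 0.10, adjusted p = 0.467), so that neither was called.

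CDH11 differed with transfection in both comparisons. Untreated cells gave 0.82, 0.66 and 0.44, above all arrays with control siRNA, and Wnt3a 0.67, 0.60 and 0.97. Control siRNA was lower by 1.08 (standard error 0.16, adjusted p = 0.000173), to 47.4% of untreated cells, and with Wnt3a in both groups by 0.68 (adjusted p = 0.012). The call without Wnt3a was lost without slide 1 (-0.98, adjusted p = 0.0573). The call with Wnt3a was lost without Wnt3a array 1 or 3 (adjusted p = 0.0587 and 0.0565). It was also lost without array 2 of control siRNA with Wnt3a (adjusted p = 0.0524). Under the spike-in scaling the difference with Wnt3a was -0.41 and was not called (adjusted p = 0.522), where the median of all genes was 0.249. In all, 2 of 8 genes were called for control siRNA against no transfection without Wnt3a (JUP and CDH11), beside 22.3% of all genes. With Wnt3a 1 of 8 was called (CDH11), beside 9.04%. Of 9 hepatic markers 4 fell and 0 rose with control siRNA without Wnt3a, and their mean was 3.57 in untreated cells and 2.70 with control siRNA. With Wnt3a in both groups 1 of these markers fell and 0 rose, and their mean was 3.21 without transfection and 2.52 with control siRNA. Their part in the JUP and CDH11 values was not tested. Without untreated array 3 CDH1 was also called for control siRNA against no transfection, at -1.25 (adjusted p = 0.027).

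**Figure D4:**
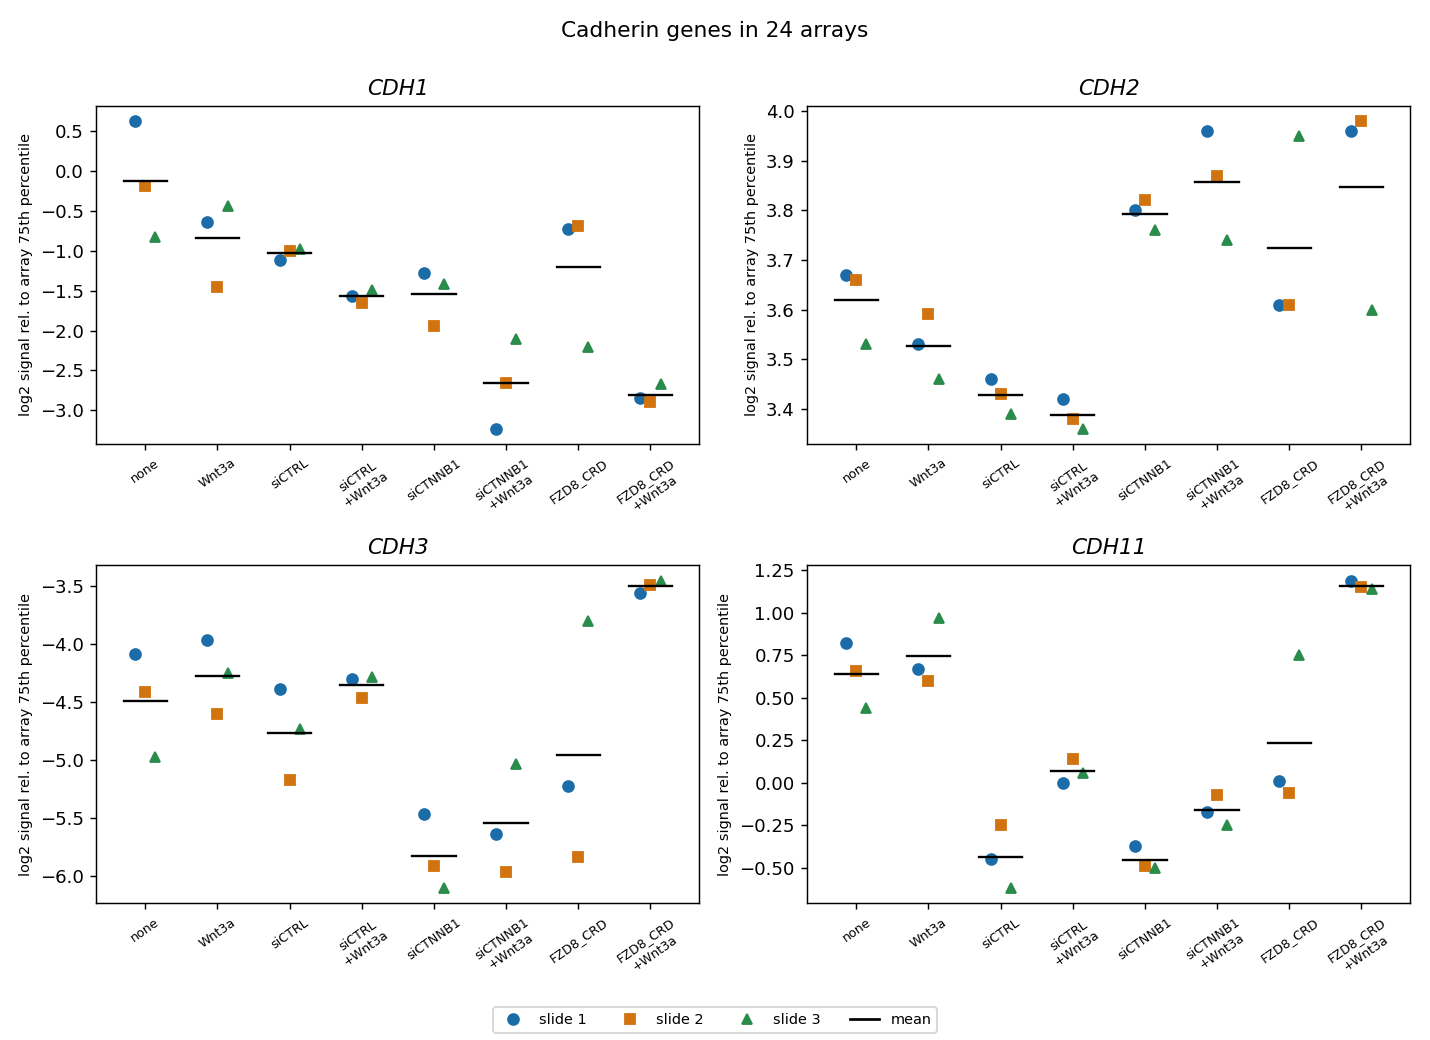
Log2 signal over that of the 75th percentile (vertical axes, each with its own range) for 4 cadherin genes on the 24 arrays, by condition (horizontal axes). Points are arrays, marked by slide, and bars are means of 3. FZD8_CRD array 3, at -2.21 for CDH1, -3.80 for CDH3 and 0.75 for CDH11, lies apart from the other 2 arrays of its condition.

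Wnt3a called 0 of the 8 genes in cells without transfection by limma, beside 5.6% of all genes. An unadjusted p under 0.05 was found for 0 of 8, beside 5234 of all 24648 genes. After control siRNA the count called was 0 of 8, beside 2.11%, and after β-catenin siRNA 0 of 8, beside 0.0406%. Beside 3461 and 2575 of all genes, 1 of 8 had an unadjusted p under 0.05 in each. These were CDH11 after control siRNA, higher by 0.51 (95% confidence interval 0.18 to 0.84, adjusted p = 0.0992), and CDH1 after β-catenin siRNA, lower with a difference of -1.12 (95% confidence interval -1.91 to -0.33, adjusted p = 0.297). CDH1 was lower with Wnt3a on all 3 slides after either siRNA. Without Wnt3a array 3, CTNNA1 was called in cells without transfection, at -0.25 (adjusted p = 0.0393).

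The question of whether the Wnt3a response depends on β-catenin was tested as an interaction. By limma 0 of 8 genes were called, beside 0.0162% of all genes. An unadjusted p under 0.05 was found for 0 of 8, beside 822 of all 24648 genes. The interval was widest for CDH1, at -1.69 to 0.54, and for CTNNB1 it was -0.49 to 0.52.

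In the presence of FZD8_CRD, 3 of 8 genes were called for Wnt3a, beside 8.29% of all genes, and these were cadherins. CDH1 fell by 1.60 (standard error 0.38, adjusted p = 0.0128), to 33% of FZD8_CRD alone. CDH3 was -5.22, -5.83 and -3.80 with FZD8_CRD and -3.56, -3.49 and -3.45 with Wnt3a added, a rise of 1.45 (standard error 0.37, adjusted p = 0.0212). CDH11 was 0.01, -0.06 and 0.75 with FZD8_CRD and 1.19, 1.15 and 1.14 with Wnt3a added, a rise of 0.93 (standard error 0.16, adjusted p = 0.00177). In each of the 3 genes the arrays with Wnt3a did not overlap with those without. These genes were picked as called on the same arrays, so this adds no support. Under the spike-in scaling the CDH11 difference was 0.85 and was not called (adjusted p = 0.177). Fitted on the 2 conditions compared alone, the 3 differences stayed the same but none was called (adjusted p between 0.211 and 0.259). Without slide 1 or 2 none of the 3 was called either. CDH11 was then at 0.80 and 0.79 (adjusted p = 0.414 and 0.292). In the same comparison 4 of 4 mesenchymal markers detected on all arrays and 3 of 9 hepatic markers rose, and 0 of either fell. The mean of these mesenchymal markers was 1.03 with FZD8_CRD and 2.17 with Wnt3a added, and that of the hepatic markers 2.74 and 3.38. Their part in the cadherin values was not tested.

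FZD8_CRD array 3 was nearest to the Wnt3a-treated arrays for these 3 genes. On slide 3 the differences were -0.45 for CDH1, 0.35 for CDH3 and 0.39 for CDH11, while slides 1 and 2 gave -2.13 and -2.21, 1.66 and 2.34, and 1.18 and 1.21. Without this array they were -2.10, 2.02 and 1.19 (adjusted p = 0.000215, 9.95e-05 and 9.48e-07). The array stood out by these same values, so the larger differences without it add no support. Without FZD8_CRD array 1 or 2, or array 1 or 2 with both, CDH1 was not called (adjusted p between 0.051 and 0.113). CDH3 was not called without any of the other 5 arrays (adjusted p between 0.0635 and 0.187). The test of the difference between Wnt3a responses with and without FZD8_CRD called 0 of 8 genes by limma, beside 0.073% of all genes. An unadjusted p under 0.05 was found for 3 of 8 (CTNNA1, CDH3 and CDH11), beside 3128 of all 24648 genes. Without FZD8_CRD array 3 the test called CDH3 at 1.80 (adjusted p = 0.0105) and CDH11 at 1.08 (adjusted p = 0.00031). Without untreated array 3 it called CDH11 at 0.92 (adjusted p = 0.0428).

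FZD8_CRD against untreated cells called 2 of 8 genes, beside 41.9% of all genes. CDH1 was lower, with a difference of -1.08 (adjusted p = 0.0267), and CDH11 lower, with -0.41 (adjusted p = 0.0436). Of 9 hepatic markers 5 fell and 2 rose in this comparison, with a mean of 3.57 in untreated cells and 2.74 with FZD8_CRD, and their part in the CDH1 value was not tested. With the slide as a block CTNND1 was also called, at 0.24 (adjusted p = 0.0378). The other probes of CTNNB1 and CTNNA1 were called as well, at 0.32 and 0.25 (adjusted p = 0.0216 and 0.014). For CDH11 slide 3 had the opposite sign, at 0.31 against -0.81 and -0.72. Without FZD8_CRD array 3 CDH1 was not called (-0.58, adjusted p = 0.198) and CDH3 was (-1.04, adjusted p = 0.0117), as was CTNND1 (0.33, adjusted p = 0.0162). Without untreated array 3 JUP was called, at -0.76 (adjusted p = 0.0129). The CDH1 call was also lost without untreated array 1 or 2 (adjusted p = 0.179 and 0.0506), and that of CDH11 without array 1 or 2 of either group (adjusted p between 0.0909 and 0.242).

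With Wnt3a in both groups, FZD8_CRD called 4 of 8 genes, beside 37.2% of all genes. CDH1 fell by 1.97 (standard error 0.38, adjusted p = 0.000416), to 25.6%, with -2.21, -1.45 and -2.24 on the 3 slides, and this call held in all 22 alternatives. CTNNA1 rose by 0.37 (adjusted p = 0.00213), CDH2 by 0.32 (adjusted p = 0.0118) and CDH11 by 0.42 (adjusted p = 0.0434). Under the spike-in scaling these 3 differences were 0.28, 0.24 and 0.33 and were not called (adjusted p = 0.59, 0.63 and 0.515), and the median of all genes was -0.161. The CDH2 call was lost without array 1 or 2 with FZD8_CRD and Wnt3a (adjusted p = 0.0666 and 0.0718). The CDH11 call was lost without Wnt3a array 1 or 2 or any array with FZD8_CRD and Wnt3a (adjusted p between 0.0774 and 0.137). CDH3 was higher by 0.77 on all 3 slides, without overlap, and was not called (adjusted p = 0.117). It was called with quantile normalization and with the deposited values, at 1.00 in each (adjusted p = 0.0198 and 0.0153). Fitted on the conditions compared alone, CDH3 was called at 0.77 (adjusted p = 0.0293). In this comparison 2 of 9 hepatic markers rose and 3 fell, with a mean of 3.21 with Wnt3a and 3.38 with both proteins. Of 4 mesenchymal markers detected on all arrays 2 rose and 1 fell, with a mean of 1.71 and 2.17. The part of these cell types in the 4 calls was not tested.

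In the order of means, CDH1 was highest in untreated cells (-0.13 ± 0.73, SD, n = 3) and lowest with FZD8_CRD and Wnt3a (-2.81 ± 0.12, SD, n = 3), next to β-catenin siRNA with Wnt3a (-2.66 ± 0.56, SD, n = 3), and these lowest groups overlapped. CDH3 and CDH11 were both highest with FZD8_CRD and Wnt3a, at -3.50 ± 0.05 and 1.16 ± 0.03 (SD, n = 3). CDH2 was highest after β-catenin siRNA with Wnt3a (3.86 ± 0.11) and with FZD8_CRD and Wnt3a (3.85 ± 0.21), which did not differ beyond their spread. CTNNA1 was highest with FZD8_CRD and Wnt3a (3.67 ± 0.05) and after β-catenin siRNA (3.65 ± 0.03), which also overlapped.

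Of 20 other adherens junction genes, 19 were tested. In the mean of the knockdown comparisons 2 rose and 5 fell, where 21.1% of all genes were called. CTNNBIP1, which encodes an inhibitor of the binding of β-catenin to TCF factors, rose by 0.59 (standard error 0.08, adjusted p = 1.84e-05), on all slides. NECTIN3, an immunoglobulin-like adhesion molecule, rose by 0.45 (adjusted p = 6.28e-05). Among the genes that fell were the actin-binding LIMA1 with -0.98 (adjusted p = 0.000597), ACTN1 with -0.62 (adjusted p = 0.000168) and VCL, the gene for vinculin, with -0.43 (adjusted p = 4.9e-05). NECTIN2 fell by 0.36 (adjusted p = 0.00908). The median of the 19 genes was 0.06, beside -0.022 for all genes.

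Plakoglobin is also a desmosome protein. Of 13 other desmosome genes 7 were tested, and in the mean of the knockdown comparisons 1 rose and 2 fell, beside the same 21.1% of all genes. PKP3, for plakophilin-3, fell by 1.16 (standard error 0.17, adjusted p = 6.06e-05), and DSC2, for desmocollin-2, by 0.71 (adjusted p = 0.00243), while PERP rose by 0.17 (adjusted p = 0.00759). DSC1, DSC3, DSG1, DSG3 and DSG4 were detected on 0 arrays. The median of the 7 genes was 0.17.

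Of 18 other cadherins 11 were tested, and 3 rose and 3 fell in the same comparison, with 21.1% called overall. CDH16, the kidney-specific cadherin, fell by 1.78 (standard error 0.18, adjusted p = 5.15e-07), with -1.83, -1.78 and -1.73 on the 3 slides. CDH7 fell by 1.12 (adjusted p = 2.46e-05) and CDH19 by 0.44 (adjusted p = 0.000301). The CDH7 signal was dim, from -4.85 to -2.77, so the size of its fall may depend on how dim signals are treated. CDH10 rose by 0.44 (adjusted p = 2.95e-06), CDH8 by 0.51 (adjusted p = 0.0173) and CDH24 by 0.38 (adjusted p = 0.0117). The median of the 11 genes was -0.03.

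Feedback targets of Wnt signaling were read next to these values. Of 13 such genes 10 were tested, but NKD1 was well above background on 4 of 24 arrays and APCDD1 on 21. Of the other 8, 0 rose and 7 fell in the mean of the knockdown comparisons, when 21.1% of all genes were called. TCF7 fell by 1.61, RNF43 by 1.28, LEF1 by 0.89 and NKD2 by 0.59 (adjusted p = 2.01e-06, 3.08e-10, 5.38e-06 and 6.27e-05).

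Cell type markers moved beside the cadherins. Of 6 mesenchymal markers tested, 5 fell and 0 rose in the mean of the knockdown comparisons (21.1% of all genes called). Of the 4 detected on all arrays 3 fell, among them VIM by 0.85 and FN1 by 0.84 (adjusted p = 0.000106 and 0.000315). COL1A2 was also lower (adjusted p = 0.000117), but was well above background on 2 of 3 arrays of either knockdown group, and PDGFRB on 7 of 24 arrays. COL1A1 fell with Wnt3a in both groups, with -1.47 (adjusted p = 0.00579). The mean log2 signal of the 4 mesenchymal markers went from 0.83 with control siRNA to 0.47 with β-catenin siRNA, and in the presence of Wnt3a from 1.66 to 0.79. Of 9 hepatic markers tested, ALB rose by 0.98 (adjusted p = 0.00273), and KRT18 and SOX9 fell by 0.28 and 0.41 (adjusted p = 0.0195 and 0.0244). The mean of the 9 was 2.70 and 3.01 without Wnt3a, and 2.52 and 2.70 with it. Of 4 endothelial markers, KDR rose by 0.43 (adjusted p = 0.0472) and PECAM1 fell by 0.79 (adjusted p = 0.00261), and 0 of 3 leukocyte markers were called. PECAM1 and SOX9 were dim, with lowest values of -5.7 and -4.31, so the sizes of their falls may depend on how dim signals are treated. The part of the marker shifts in the cadherin values was not tested.

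The likeness of other genes to each member is given as Pearson r, with Spearman rho after it, over the 24 arrays, among 15974 genes with a symbol. Among the genes most like CTNNB1 were QDPR (0.959, 0.733) and FNDC3A (0.945, 0.663), and among those most opposed were CACNA2D3 (-0.953, -0.622) and PLAG1 (-0.946, -0.725). The 6 knockdown arrays set these values, since within conditions r was 0.181, -0.204, -0.337 and -0.319 for these genes. JUP was most like TMEM35B (0.875, 0.824), LAMP2 (0.833, 0.783) and PDLIM2 (0.828, 0.761). CTNNA1 was most like RAPGEF2 (0.914, 0.928), ZFAND6 (0.897, 0.872) and REL (0.896, 0.863), and CTNND1 most like CTR9 (0.827, 0.772), OLA1 (0.818, 0.847) and HARS1 (0.812, 0.753).

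Among the cadherins, CDH1 was most like SNTB1 (0.952, 0.957), IGFBP2 (0.95, 0.956) and ACO1 (0.95, 0.951), and within conditions these remained at 0.924, 0.88 and 0.877. CDH2 was most like RUNX1 (0.867, 0.832), ZXDA (0.856, 0.845) and MGAT5 (0.854, 0.877). CDH3 was most like KRABD3 (0.936, 0.936), LY96 (0.93, 0.93) and LOC153910 (0.921, 0.906), and CDH11 most like ARRDC4 (0.929, 0.883), BTBD16 (0.914, 0.865) and HGF (0.914, 0.897). Between the members themselves, the 3 highest r were 0.78 for CDH3 and CDH11, 0.76 for CTNNB1 and CDH3, and 0.72 for CTNNA1 and CDH2. The 2 lowest were -0.61 for CTNND1 and CDH2 and -0.58 for CDH1 and CDH2. The arrays share slides and conditions, so these values are descriptions.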

How the data were processed

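Total RNA of 24 HepaRG samples was labelled with Cy3. The authors deposited scanner files whose intensity values are linear, background-subtracted and detrended by Agilent Feature Extraction (version 10.7.1.1 in the file headers, 10.7.3.1 in the submitters' processing notes), with no normalization between arrays. Other deposited columns are flags (well above background, outlier, saturated). The authors also deposited log2 values for 25443 probes, relative to the 75th percentile and centred per probe, used as an alternative. Their correlation with the centred scanner values was 0.9258 to 0.9917.

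Probes were named by matching their transcripts, without versions, to RefSeq (GRCh38.p14), which gave 28174 of 50683 probes a symbol. Signals were divided by the 75th percentile of the array, set to a floor of -6.13 (log2), logged and averaged over spots. Outlier spots were left out (11 among those of the members), and 0 member spots were saturated. A probe was kept if some condition had it well above background in all 3 arrays (31067 probes), and the probe with the highest mean stood for its gene. R 4.3.3 with limma 3.58.1 estimated 8 condition means and their differences (eBayes with trend), two-sided, with Benjamini-Hochberg adjustment over 24648 genes. Figures used matplotlib 3.10.9. The fit was tested on simulated data.

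All members were described. From each list, genes called in a knockdown comparison were named, at most 4 per direction by size. The members and lists were chosen with earlier results of these data known. The counts of mesenchymal markers and Wnt feedback targets detected on all arrays were chosen after the data were seen. Replicate numbers name slides. After removal of condition means, 2 arrays from the same slide had a mean r of 0.384 (above 0.1 for 82 of 84 pairs), so a fit with slide blocks was made too. No array was a copy, as r within a condition reached 0.9961 at most. Normexp was run on the median signal, since the files hold no mean signal. The number of arrays limits the precision.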

Additional observations from a re-analysis of the deposited data

Results flagged for a closer look

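The JUP response to Wnt3a had opposite signs after the 2 siRNAs on every slide. After control siRNA it was 0.26, 0.99 and 0.43, and after β-catenin siRNA -0.32, -0.22 and -0.02. The difference between these responses was -0.74 (95% confidence interval -1.54 to 0.05). By limma its unadjusted p was 0.066 and its adjusted p 1, so that it did not pass the test.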

How the results depend on the processing

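Of 2471 results for single genes under other settings, 2275 had the same label, 50 were stronger, 146 were weaker and 0 were reversed. In some the sign changed where neither value was called. The cause of the changes was not tested. Below, only the member counts with the slide block have the share of all genes called in the same fit beside them. The other member counts have no such share, so they cannot be read as particular to the members.

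With scaling to spike-in probes, β-catenin siRNA called 1 gene of 8 without Wnt3a, 2 with Wnt3a and 2 in the mean of both, in place of 3, 5 and 6. The same scaling called 0 for control siRNA against no transfection with Wnt3a (in place of 1) and 1 for FZD8_CRD with Wnt3a in both groups (in place of 4). The median of all genes then was -0.369 for Wnt3a in cells without transfection, 0.178 for Wnt3a after control siRNA, -0.301 for control siRNA without Wnt3a and -0.471 for FZD8_CRD without Wnt3a. It was -0.103 for Wnt3a after β-catenin siRNA, and for the differences between Wnt3a responses -0.276 with β-catenin siRNA and 0.311 with FZD8_CRD.

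The thresholds of the study (p under 0.01, fold above 1.5 or under 0.7) were applied here to the unadjusted p. With them, β-catenin siRNA called 1, 3 and 3 genes. Wnt3a after β-catenin siRNA called 1 in place of 0, FZD8_CRD called 1 without Wnt3a and 1 with it, and the difference of Wnt3a responses with FZD8_CRD called 1 in place of 0.

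Fitted on only the conditions compared, β-catenin siRNA without Wnt3a called 6 genes, Wnt3a after control siRNA 2, Wnt3a with FZD8_CRD 0, control siRNA 1 without Wnt3a and 0 with it, and FZD8_CRD without Wnt3a 0. With no filter control siRNA called 1 and FZD8_CRD 0, without Wnt3a. FZD8_CRD without Wnt3a called 1 gene with quantile normalization, normexp, the deposited values or eBayes without trend, and 4 with each probe on its own.

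With the replicate block (the slide), β-catenin siRNA called 4 genes without Wnt3a, 5 with it and 6 in the mean, beside 16.6%, 15.6% and 28.1% of all genes. FZD8_CRD called 3 and 5, beside 53.3% and 48.5%. The other counts did not change.

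Counting mesenchymal markers detected on all arrays, chosen after seeing the data, gave 3 in place of 5 in the mean of the knockdown comparisons. The same choice for Wnt feedback targets, also made after seeing the data, left 7 called.

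Leaving out arrays or slides gave 1 to 3 genes for β-catenin siRNA without Wnt3a, 1 to 5 with Wnt3a and 4 to 6 in the mean. For Wnt3a it gave 0 to 2 in cells without transfection, 0 to 1 after control siRNA, 0 to 0 after β-catenin siRNA and 0 to 5 with FZD8_CRD. For control siRNA it gave 0 to 5 without Wnt3a and 0 to 1 with it, and for FZD8_CRD 0 to 5 and 1 to 5. The differences of Wnt3a responses gave 0 to 0 with β-catenin siRNA and 0 to 4 with FZD8_CRD.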
